A study of Mus musculus with 2 samples.

Results

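The NFI and RFX transcription factor genes were followed as a set of 10 members out of the 21938 protein-coding genes of GENCODE M21 on the mm10 build. The set was chosen by name: the 4 nuclear factor I genes Nfia, Nfib, Nfic and Nfix, and the 6 regulatory factor X genes Rfx1, Rfx2, Rfx3, Rfx4, Rfx5 and Rfx7. Each gene was examined over its body plus 10 kb on each side and within 500 bases of each annotated start. The study mapped DNase I accessibility in 2 libraries of left cerebral cortex, labelled as biological replicates 1 and 2. Both came from adult female B6CASTF1/J mice, a first-generation cross of C57BL/6J and CAST/EiJ, aged 18 to 20 months and supplied by The Jackson Laboratory. The series holds 1 group, with no treatment, no second genotype and no other tissue to compare with. Both biosamples carry the same donor identifier, and the labels do not say whether separate mice were used. A mean ± SD over n = 2 therefore describes the spread between these libraries only, which may be technical, and no test between groups was possible.

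NFI proteins bind DNA as dimers at the palindrome TTGGC and GCCAA, with 5 bases of any kind between the arms. In the developing brain they are known for turning on astrocyte genes and for the maturation of neurons. RFX proteins share a winged-helix domain that binds the X-box, an inverted repeat. RFX factors are known as regulators of genes for cilia, and RFX5, with its partners RFXAP and RFXANK, drives the major histocompatibility complex (MHC) class II genes of immune cells.

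DNase-seq reports where chromatin is open to cutting. A peak is an accessible region, its signal is the authors' own value per peak, and a footprint is a short protected stretch inside open chromatin. The authors also gave a false discovery rate per base for the cut rate. The longer peak list held 132054 peaks in library 1 and 139799 in library 2, with 271439 and 323715 footprints. Read depth is not known from these files, so no counting error can be put on a signal, and a missing peak means only that none was called. Cortex is a mixture of cells, and a larger share of one cell type cannot be told apart from more open chromatin per cell. The markers of excitatory neurons (5 of 5) and of inhibitory neurons (3 of 3) had a promoter peak in both libraries, as did 4 of 5 astrocyte markers. Of the other markers this held for 1 of 4 for oligodendrocytes, 1 of 3 for endothelium, 0 of 3 for microglia, 1 of 3 for ependyma and 0 of 4 for liver, heart muscle and skin. Over all protein-coding genes it held for 63.6%, so counts on such short lists cannot show which cell types were present. Median promoter signals were 1.53 for excitatory, 0.705 for inhibitory and 0.565 for astrocyte markers, beside 1.43 over all protein-coding genes.

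With the promoter window given above, each NFI gene had an intronic site away from annotated starts with more signal than its promoter in both libraries. With 2000 bases around each start, this held for Nfia and Nfib only, as the Nfic and Nfix sites are then promoter peaks. Among RFX genes, Rfx4 had a stronger peak away from starts with both windows, and Rfx3 and Rfx7 had one with 250 bases. The sites of Nfia, Nfib and Nfic are shown first. Each had a higher signal than its gene's promoter in both libraries with the first window. Each sequence is from the mm10 genome, on the strand of its gene, and covers the peak as called in library 2. Capitals mark bases that lay in a footprint in both libraries.

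Nfia intron, chr4:97868941-97869140, plus strand: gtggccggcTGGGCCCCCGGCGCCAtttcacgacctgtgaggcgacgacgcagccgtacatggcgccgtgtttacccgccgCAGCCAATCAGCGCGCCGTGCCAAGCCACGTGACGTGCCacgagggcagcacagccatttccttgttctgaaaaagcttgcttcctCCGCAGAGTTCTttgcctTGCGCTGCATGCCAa
Nfib intron, chr4:82513161-82513440, minus strand: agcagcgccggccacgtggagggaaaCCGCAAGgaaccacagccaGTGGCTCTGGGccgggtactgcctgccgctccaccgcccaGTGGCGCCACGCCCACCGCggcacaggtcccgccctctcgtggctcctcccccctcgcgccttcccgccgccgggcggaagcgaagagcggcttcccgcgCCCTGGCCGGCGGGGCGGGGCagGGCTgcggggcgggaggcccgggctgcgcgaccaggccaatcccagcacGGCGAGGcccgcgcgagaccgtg
Nfic intron, chr10:81432941-81433200, minus strand: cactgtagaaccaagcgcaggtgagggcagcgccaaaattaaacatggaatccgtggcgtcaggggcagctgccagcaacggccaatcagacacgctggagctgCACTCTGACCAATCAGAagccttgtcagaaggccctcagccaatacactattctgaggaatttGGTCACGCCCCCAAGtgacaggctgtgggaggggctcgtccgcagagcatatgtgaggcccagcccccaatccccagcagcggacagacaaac

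The footprinted bases of the Nfia and Nfic sites held CCAAT, the box bound by NFY, and those of the Nfib site held GGGCGGGG, a box bound by SP and KLF factors. For comparison, CCAAT occurred on either strand anywhere in 21.4% of all peaks of library 1 and in 21.7% of library 2, and GGGCGGGG in 6.30% and 6.44%. Of all single footprints, 0.985% in library 1 and 0.978% in library 2 held CCAAT, and 1.82% and 1.61% held GGGCGGGG. Each site shown had several footprints, so neither share is an exact counterpart. The Nfia footprints also held TTGGCA, a single arm of the NFI site, on the opposite strand. A match of letters is a description of the sequence and does not identify the protein bound there.

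At the promoters, 9 of the 10 members had a peak in both libraries. The same held for 63.6% of all protein-coding genes. In library 1 all 10 members had one, against 64.5% of all genes, and in library 2 there were 9, against 66.5%. The exception was Rfx4. RFX promoters lay above NFI promoters on the median: the median signal over the 6 RFX genes was 5.02 ± 0.0665 (SD, n = 2) and over the 4 NFI genes 2.63 ± 0.404. Over all 10 members it was 3.61 ± 0.174, beside 1.43 ± 0.166 over all protein-coding genes. Over the 9 members open in both libraries it was 4.34 ± 0.115, beside 3.30 ± 0.244 for all genes open at a start in both.

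The largest promoter signals belonged to RFX genes. Rfx1, the founding member of the family and a widely expressed regulator, had a signal of 10.4 in library 1 and 8.07 in library 2. Rfx2, best known for spermatogenesis and ciliated cells, had 7.72 and 6.41. Rfx3, a regulator of ciliogenesis, had 5.72 and 5.70. These 3 genes held the top 3 places in both libraries, and their ranges did not overlap. Among genes with a promoter peak, the Rfx1 signal stood at percentile 99.1 in library 1 and 95.7 in library 2.

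Nfia followed with 4.76 and 5.06, and it was the NFI gene with the largest promoter signal within 500 bases of a start. Rfx5, the DNA-binding subunit of the complex on MHC class II promoters, had 4.42 and 4.25. Nfic, an NFI gene known for tooth root formation, had 2.55 and 3.21. Rfx7, a relative of Rfx5, had 2.55 and 2.31, and Nfix, known for the timing of progenitor differentiation, had 2.15 and 2.63. Nfic, Rfx7 and Nfix could not be ordered, since the libraries of Nfic and Rfx7 overlapped, as did those of Rfx7 and Nfix. Every other pair of neighbours in the order was separated in both libraries.

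Nfib, an NFI gene needed for forebrain and lung maturation, had low signals of 1.18 and 1.20, at percentiles 19 and 15.9 of genes with a promoter peak. Rfx4, a factor of neural progenitors and glia, was lowest: library 1 had a peak of 0.565 and library 2 had none. Around its first start, 65 of the bases within 500 bases had a false discovery rate under 0.05 in library 1 and 0 in library 2. At Rfx1 all 1001 bases of that window were under the threshold in both libraries. The same was so at starts of Rfx3, Rfx7 and Nfib, although the Nfib signal was low. The other 3 Rfx4 starts had no peak in either library.

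**Figure D1:**
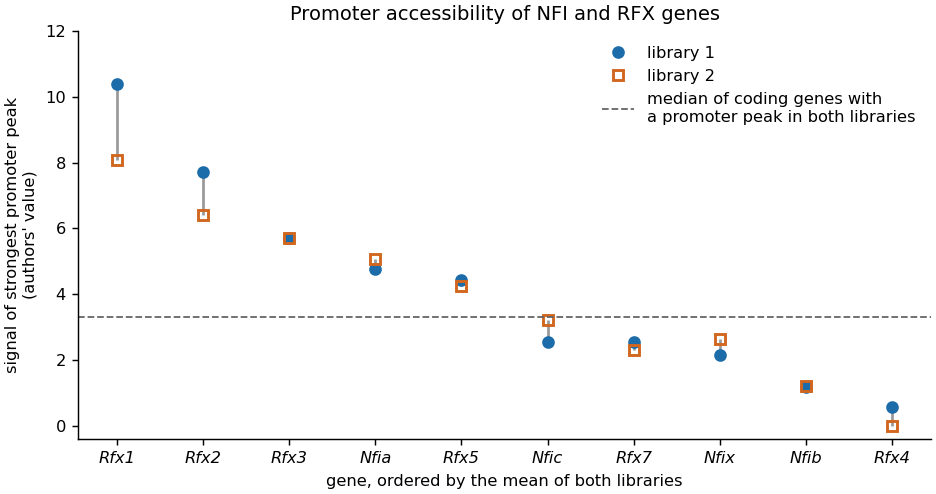
Signal of the strongest peak within 500 bases of any annotated start (vertical axis, authors' value) for each of the 10 genes, with library 1 as filled circles, library 2 as open squares, a line joining the 2 libraries and a dashed line at 3.30, the mean over both libraries of the median over all genes open at a start in both. Rfx1, Rfx2, Rfx3, Nfia and Rfx5 lie above the dashed line in both libraries, and Rfx4 lies lowest.

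The promoter peaks of 3 RFX genes are shown to give the sequences behind these signals. Each was read on the strand of its gene from the peak of library 2, without annotated exon bases. Capitals mark bases in a footprint of both libraries.

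Rfx2, chr17:56831201-56831380, minus strand: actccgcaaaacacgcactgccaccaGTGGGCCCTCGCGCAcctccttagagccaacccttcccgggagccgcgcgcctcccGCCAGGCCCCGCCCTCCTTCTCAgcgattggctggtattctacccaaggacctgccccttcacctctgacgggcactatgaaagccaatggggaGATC
Rfx3, chr19:28011461-28011680, minus strand: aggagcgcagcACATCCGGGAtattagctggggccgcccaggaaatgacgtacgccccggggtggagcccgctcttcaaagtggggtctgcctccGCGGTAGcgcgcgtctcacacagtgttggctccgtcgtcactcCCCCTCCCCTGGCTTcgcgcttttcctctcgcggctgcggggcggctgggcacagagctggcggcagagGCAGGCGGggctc
Rfx5, chr3:94953961-94954074, plus strand: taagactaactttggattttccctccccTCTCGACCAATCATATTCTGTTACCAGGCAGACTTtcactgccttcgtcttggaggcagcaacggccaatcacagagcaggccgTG

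The footprinted stretch of Rfx5 held CCAAT and that of Rfx2 held GGGCGGGG on the opposite strand. The Rfx3 capitals held neither. In the RefSeq promoter table for this build, 13 entries covered 9 of the 10 genes, each running from 250 bases before a start to 50 after it. CCAAT was present in 8 of these 13, against 37.4% of all 32851 entries, and GGGCGGGG in 4, against 17.6%. The 8 entries with CCAAT belong to Nfia, Nfix, Rfx1, Rfx2, Rfx4 and Rfx5, with Nfix counted more than once. The partial X-box (CC, any 2 bases, GG, any 1 base, AAC) was present in 1 of 13, the Rfx1 promoter, against 6.27% of all entries. The single NFI arm was present in 0 of 13, against 14.1%.

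Most members have several annotated starts, and accessibility was spread unevenly over them. The 10 genes had 71 distinct starts, of which 50 (70.4%) had a peak within 500 bases in both libraries, 18 had none in either and 3 had one in a single library. Over all starts of protein-coding genes, 51.7% had a peak in both. Starts of 1 gene lie close together and share peaks. Joining starts of a gene that lay within 500 bases of the next left 33 groups of starts. Of these, 15 (45.5%) were open in both libraries, 15 in neither and 3 in 1. The groups that held a protein-coding transcript were open in 13 of 21 cases and those without one in 2 of 12. Starts were not grouped over all protein-coding genes, so the group counts have no such share to stand beside. Windows around the starts open in both libraries had a median GC content of 61.8%, and those around starts closed in both had 49.4%. The ratio of observed to expected CpG was 0.806 and 0.251.

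For Nfia the strongest promoter peak lay upstream of the first start, chr4:97772734, with 4.76 and 5.06. The group of 5 starts 4.87 kb further on lies in a CpG-rich window with GC content between 68.6% and 70.1%, yet its signal was 0.660 and 0.863. A noncoding start 138 kb into the gene had 1.37 and 1.49, and the start at 107 kb had no peak in library 1 and 0.549 in library 2. By peak signal within 500 bases the first start, whose window had a GC content of 45.4%, ranked highest. Its peak is centred 443 bases upstream and had a GC content of 65.4%. With 250 bases that peak is left out, and Nfia had 1.37 and 1.49. By bases with a false discovery rate under 0.05 the first start had fewer, 502 in library 1 and 496 in library 2. The group of 5 starts had 614 to 644 in library 1 and 775 to 927 in library 2. The RefSeq table places a further Nfia start at chr4:97581943, 190791 bases from any GENCODE start, and no peak lay within 500 bases of it in either library.

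For Nfib the most distal start, chr4:82705750, had no peak in either library, though it is annotated as protein-coding. The signals of 1.18 and 1.20 came from 6 starts 200 kb downstream of it. A noncoding start at 206 kb had 0.592 and 0.882. For Nfic the strongest of 5 groups was the start at chr10:81431005, with 2.55 and 3.21 from a peak centred 624 bases further into the gene. A second start, 48.0 kb from the first, had 2.11 and 1.96, and a group of 3 starts at 28.4 kb had 1.12 and 1.30. With 250 bases the largest Nfic signal was 2.20 in library 2. In library 1 it was 2.11, the value of the start at 48.0 kb, so the order of these starts depends on the window. The most distal Nfic start had no peak in library 1 and 0.370 in library 2.

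For Nfix the inner start at chr8:84774369 had 2.15 and 2.63, above the outermost group of 3 starts with 1.01 and 1.41. The outermost windows were the most GC-rich of all members' starts, from 74.8% to 81.2%. The other 4 Nfix starts were closed in both libraries. RefSeq lists another Nfix start at chr8:84775828, 1459 bases from the nearest GENCODE start, which had peaks of 1.72 and 1.95.

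RFX genes were simpler. Rfx1 had 1 group of starts, and Rfx2, Rfx3 and Rfx7 each had 1 open group at the 5' end, while their internal starts were closed in both libraries. These closed internal starts lay 47.3 kb into Rfx2, 28.2, 110 and 174 kb into Rfx3, and 67.4 and 78.1 kb into Rfx7. Of the 15 closely spaced Rfx5 starts, 12 lay within 500 bases of the same peak and 3 further into the gene did not. RFX start groups were open in both libraries in 5 of 15 cases and NFI start groups in 10 of 18, again without a share over all genes.

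Away from starts, the NFI genes differed from most RFX genes with windows of 500 bases. A peak was called away from starts if it did not come within 500 bases of an annotated start of any gene. In all 4 NFI genes the strongest such peak exceeded the promoter signal in both libraries. For Nfic and Nfix this rests on the window: with 2000 bases around each start, their peaks of 4.95 and 4.33 and of 2.38 and 3.03 are promoter peaks themselves, and of the NFI genes only Nfia and Nfib then have a stronger peak elsewhere. Among the 13956 coding genes open at a start in both libraries this was so for 17.9% (14.1% of genes open at a start with the wider window), and among the 4318 of them that are at least 50 kb long for 26.1%. Among RFX genes it held with 500 bases for Rfx4 alone, whose promoter was closed in library 2, and not for the other 5. With 250 bases around each start it also held for Rfx3, with 5.72 and 5.70 against 0.769 and 0.943 at the promoter. It then held for Rfx7 too, with 2.18 and 2.69 against 1.49 and 2.21.

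The Nfia intronic site shown above had 5.48 in library 1 and 6.98 in library 2, at percentiles 97.8 and 99.1 of all peaks. It lies 11.1 kb before the start that was open in library 2 only. The Nfib site had 5.15 and 5.22, more than its promoter's 1.18 and 1.20, and its middle lies 7.51 kb upstream of the nearest start. Its GC content was 77.9%, and it held 7 footprints in each library. The Nfic site had 4.95 and 4.33 and lies 2.06 kb upstream of the start at chr10:81431005. For Nfix the margin was small: an intronic peak at chr8:84709241-84709460 had 2.38 and 3.03, beside 2.15 and 2.63 at the promoter.

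In the RFX genes the strongest peaks away from starts, again with windows of 500 bases, were weaker. In Rfx1 it was an intronic peak of 1.58 and 1.35. In Rfx2 an intronic peak 22.2 kb into the gene had 2.19 and 2.75, and in Rfx3 a peak 0.865 kb upstream had 1.23 and 1.80. Rfx7 had 2.18 and 2.69 at a site 1.81 kb upstream, above its promoter in library 2 only. In Rfx4 different peaks led in each library, an intronic peak with 1.81 in library 1 and another with 1.72 in library 2. Rfx5 had no peak away from starts in library 1 and 1 of 0.462 in library 2. Rfx1 also had 2 strong peaks at starts of other genes, with 6.80 and 6.25 at the Dcaf15 start downstream and 4.46 and 4.45 at the start of the antisense gene C330011M18Rik, within 500 bases of the peak's middle.

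**Figure D2:**
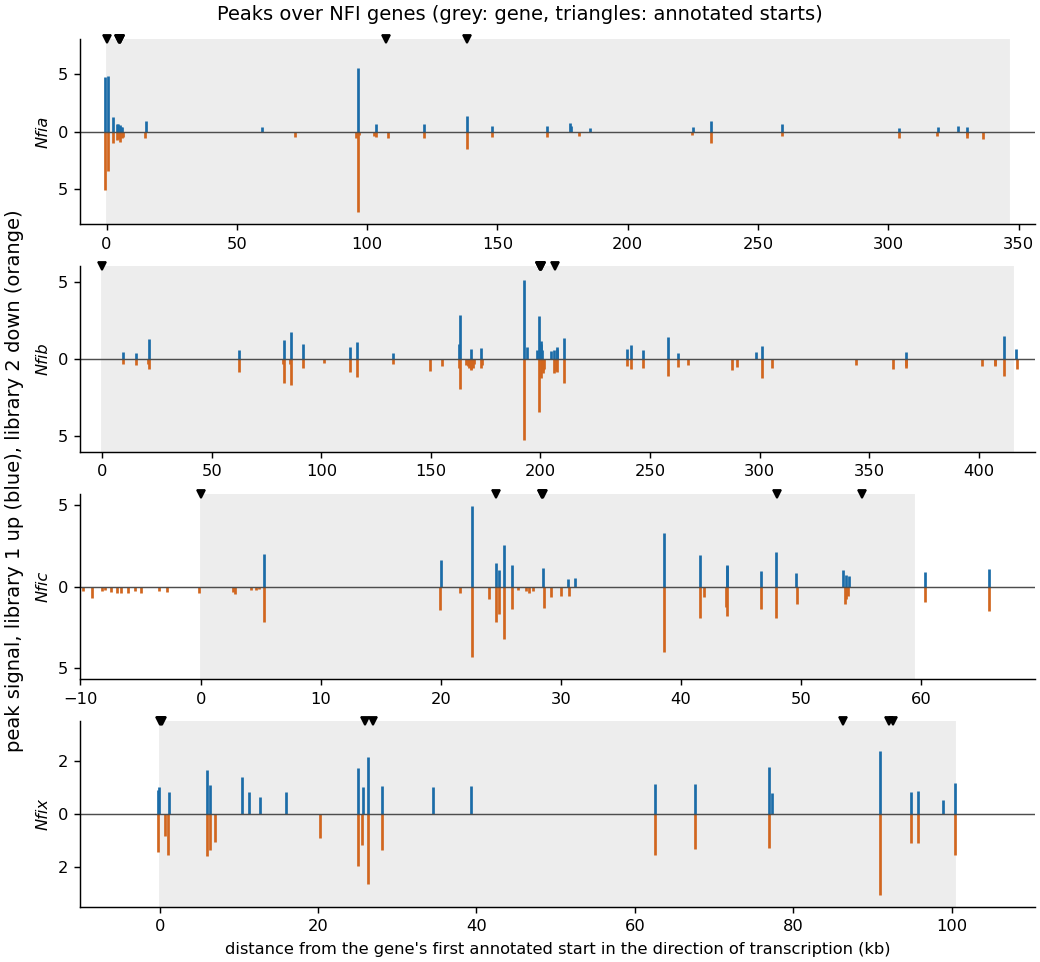
Each peak of the 4 NFI genes by its distance in kb from the gene's first annotated start (horizontal axis) and its signal (vertical axis), with library 1 upwards in blue and library 2 downwards in orange, the gene body in grey and annotated starts as triangles. The tallest line in each panel is not at an annotated start, and upstream of Nfic only library 2 has peaks.

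**Figure D3:**
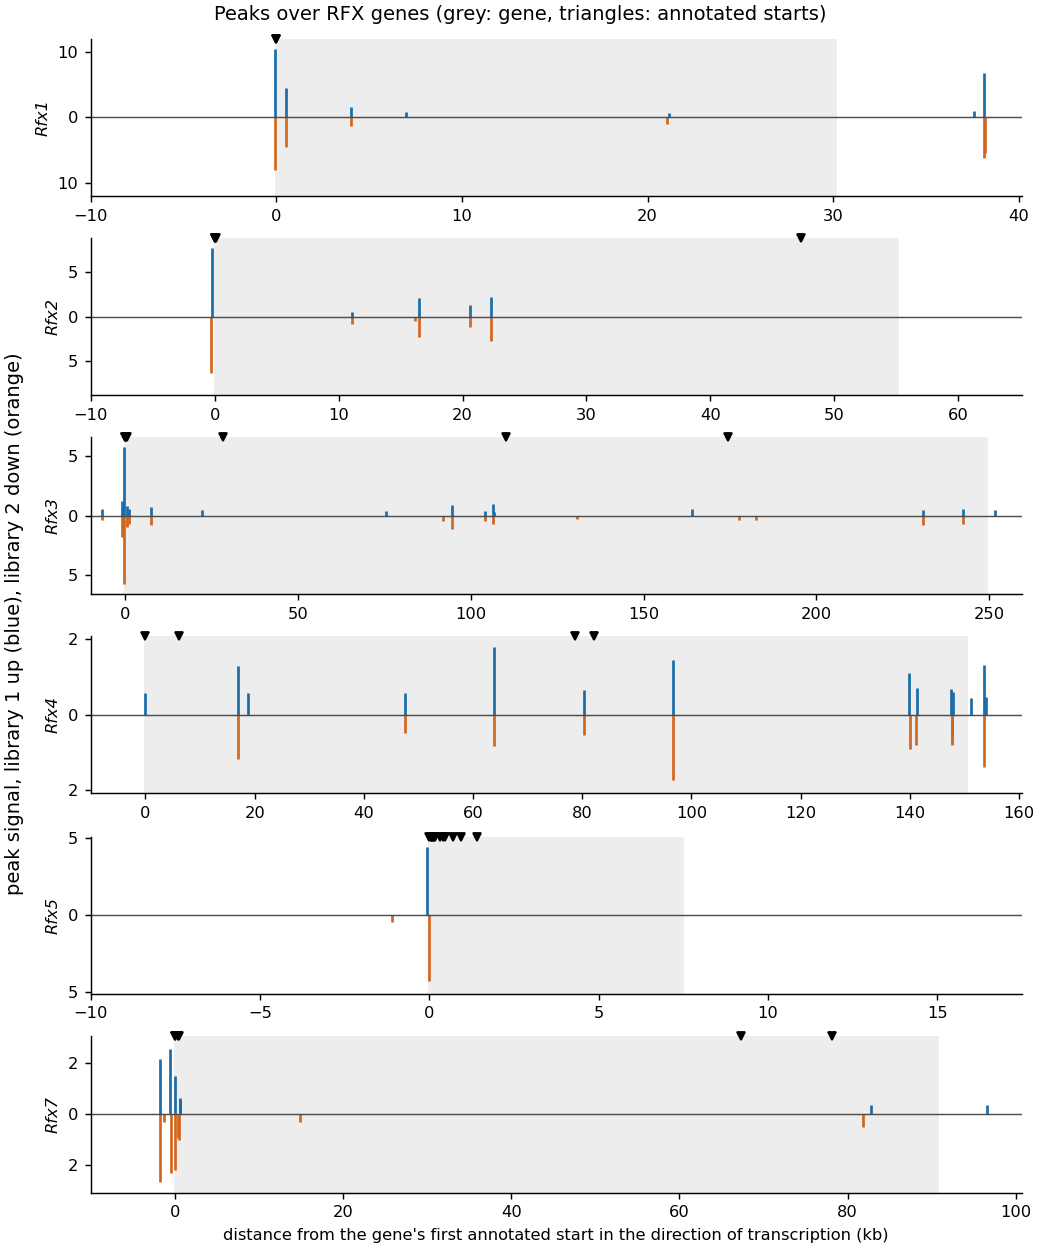
The same for the 6 RFX genes, with signal on the vertical axis scaled to each gene. In Rfx1, Rfx2, Rfx3 and Rfx5 the tallest line stands at the first start, and in Rfx4 the tallest lines lie inside the gene.

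Peaks were more numerous over NFI genes than over most genes of their length. Over their windows NFI genes had 108 peaks in library 1 and 152 in library 2, which is 10.8 and 15.2 per 100 kb. RFX genes had 50 and 47, or 7.11 and 6.68 per 100 kb. Over the windows of all protein-coding genes the values were 7.88 and 8.55. Most member peaks were intronic, 105 of 158 in library 1 and 139 of 199 in library 2, when each was placed by its middle.

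Each count was also ranked among the 200 protein-coding genes of nearest length. Nfic, 59.5 kb long, had 22 and 48 peaks, at percentiles 99.0 and 100. Nfix, 100 kb long, had 24 and 18, at 99.8 and 90.5. Nfib, 416 kb long, had 36 and 57, at 79.8 and 97.0, and Nfia, 346 kb long, had 26 and 29, at 70.8 and 76.5. All 4 NFI genes were in the upper part of their length class in both libraries, Nfic and Nfix furthest.

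Most RFX genes lay nearer the middle of their length class. Rfx1 had 7 and 6 peaks, at percentiles 80.8 and 69.5, and Rfx4 had 14 and 10, at 64.8 and 37.5. Rfx2 had 5 and 6, at 42.2 and 52.2, and Rfx3 had 16 and 15, at 43.5 and 39.5. Rfx7 had 7 and 8, at 39.5 and 43.5, and Rfx5, the shortest gene at 7.49 kb, had 1 and 2, at 31.8 and 41.8.

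**Figure D4:**
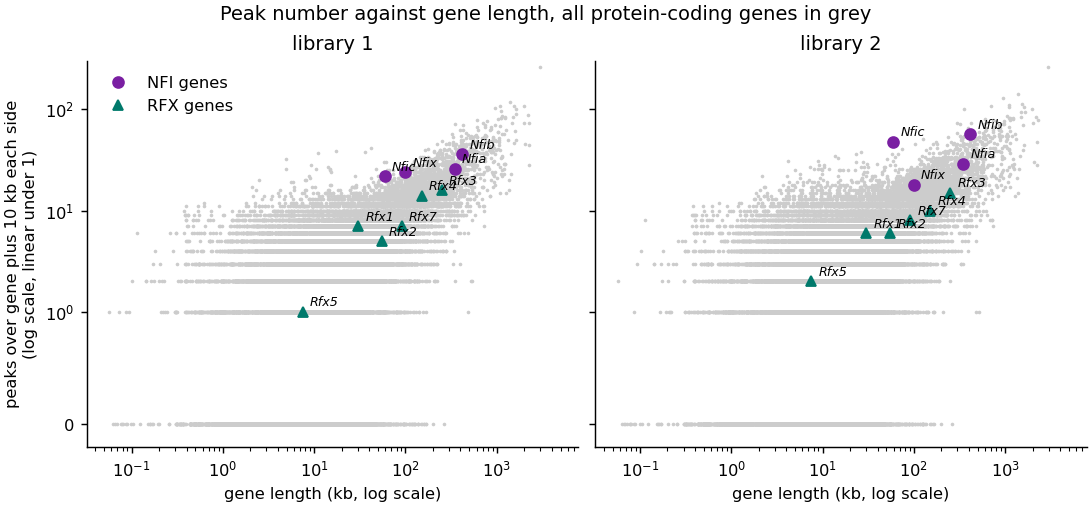
Number of peaks over each gene plus 10 kb on each side (vertical axis, log scale, linear under 1) against gene length (horizontal axis, kb, log scale) in library 1 and library 2, with every protein-coding gene as a grey point, NFI genes as circles and RFX genes as triangles. Nfic lies at the upper edge of genes of its length in both panels, with 22 and 48 peaks.

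The libraries did not list the same number of peaks over NFI genes. Library 2 listed more than library 1 for Nfic and Nfib, and fewer for Nfix. When peaks at or under each library's median signal (0.640 and 0.641) were left out, Nfic had 19 and 21, Nfib 22 and 25, Nfix 23 and 18, and the 4 NFI genes 75 and 74. Other settings left the Nfic gap in place, with 15 and 34 peaks in the shorter list and 22 and 43 when equal numbers of the strongest peaks were taken from each library. With the limit at the median signal Nfic stood at percentile 99.0 in both libraries, Nfix at 100 and 96.5, Nfib at 87.2 and 90.5 and Nfia at 65.8 and 61.2. Of the RFX genes Rfx1 then stood highest, at 91.8 and 86.5.

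The Nfic difference lay in its gene body and upstream flank, with little of it downstream. In the 10 kb upstream of the gene, library 1 had 0 peaks and 0 bases with a false discovery rate under 0.05, and library 2 had 13 peaks and 3934 such bases. The signals of these 13 peaks ran from 0.228 to 0.703. Within the gene body 5532 bases passed in library 1 and 12109 in library 2, and downstream 354 and 453. The lowest signal called over the Nfic window was 0.470 in library 1 and 0.173 in library 2. Over all members the windows held 46743 passing bases in library 1 and 64250 in library 2, or 2.74% and 3.77%, beside 2.64% and 3.07% over all protein-coding genes. Whether a local difference in calling or in depth had a part in the Nfic run of weak peaks was not tested.

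**Figure D5:**
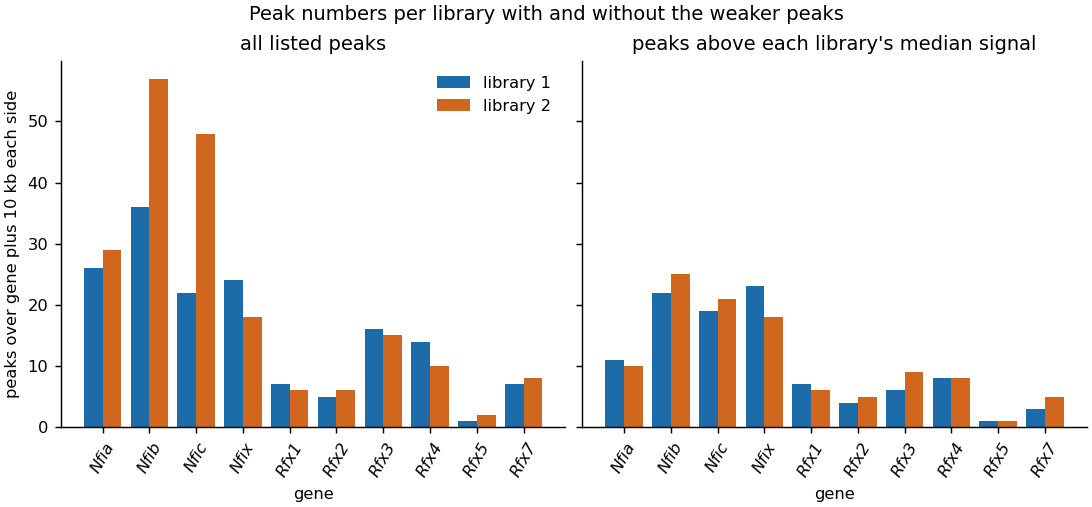
Number of peaks over each gene plus 10 kb on each side (vertical axis) for library 1 in blue and library 2 in orange, for every listed peak on the left and for peaks above each library's median signal on the right. The gap of 22 to 48 for Nfic on the left is 19 to 21 on the right.

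Agreement between the libraries was counted next. Of 158 member peaks in library 1, 124 overlapped a peak of library 2, which is 78.5% (95% exact binomial interval 71.2 to 84.6), beside 77.8% of all peaks. Of 199 in library 2, 124 overlapped one of library 1, which is 62.3% (55.2 to 69.1), beside 73.2% of all peaks. The interval covers only the counting of regions, and neighbouring peaks are not independent. By family, the share in library 1 was 80.6% for NFI genes and 74.0% for RFX genes, and in library 2 it was 56.6% and 80.9%. Nfic had 27 of its 48 library 2 peaks without a partner and Nfib 25 of 57. The unshared peaks of the members were weaker, with medians of 0.497 and 0.401, beside 0.994 and 1.10 for their shared peaks. The strongest unshared peaks were both in Nfix introns, 1.40 in library 1 and 1.07 in library 2. Bases with a false discovery rate under 0.05 in the other library numbered 0 at each.

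Where both libraries had a peak, its height was close. There were 116 pairs of member peaks that were each other's strongest overlap, with a median log2 ratio of library 2 over library 1 of 0.10, beside 0.09 over all 99347 pairs. The ratios ran from -1.12 to 0.92. Only 1 pair differed by more than 2-fold, as did 1.59% of all pairs. That pair was the Rfx4 intronic peak at chr10:84819781-84819980, with 1.81 in library 1 and 0.832 in library 2. By gene, the median ran from -0.14 in Rfx4 to 0.43 in Rfx7.

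Footprints followed the peaks. Member windows held 367 footprints in library 1 and 464 in library 2, most of them in Nfib (94 and 126), Nfic (44 and 104), Nfia (60 and 70) and Nfix (49 and 42). Rfx1 had 25 and 30 in a window of 50.2 kb, at percentile 90.8 among genes of like length in both libraries. Footprint bases made up 12.6% and 11.5% of the bases in member peaks, beside 11.8% and 12.6% in all peaks. Of the member footprints 52.3% in library 1 and 39.4% in library 2 overlapped one of the other library, beside 52.4% and 43.4% of all footprints. For Nfic 65.9% were shared in library 1 and 27.9% in library 2, where its weak peaks were called.

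Because the members encode factors with known binding letters, their own accessible sites were searched for those letters on both strands. Both arms of the NFI site or of the X-box were matched, in full or with looser letters, at 10 sites, of which 7 are printed. The Nfia site and the Rfx3 site are complete, and the other 5 match the looser letters. They are shown on the strand of the gene with the match in capitals. The first is the only complete NFI palindrome in a member peak.

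Nfia intron, chr4:97876106-97876150, plus strand: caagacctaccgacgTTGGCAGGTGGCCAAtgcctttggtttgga
Nfic intron, chr10:81435641-81435683, minus strand: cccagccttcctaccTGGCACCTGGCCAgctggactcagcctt
Rfx2 intron, chr17:56810391-56810433, minus strand: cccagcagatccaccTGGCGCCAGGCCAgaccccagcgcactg
Rfx4 intron, chr10:84852682-84852724, plus strand: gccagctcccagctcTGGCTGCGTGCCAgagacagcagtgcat
Nfib intron, chr4:82690408-82690450, minus strand: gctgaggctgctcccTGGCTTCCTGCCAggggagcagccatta
Rfx3 intron, chr19:27907190-27907233, minus strand: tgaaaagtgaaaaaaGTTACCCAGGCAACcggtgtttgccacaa
Rfx4 intron, chr10:84903487-84903530, plus strand: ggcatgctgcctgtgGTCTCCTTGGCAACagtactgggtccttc

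The complete palindrome lay in an Nfia intronic peak with 0.626 in library 1 and 0.432 in library 2, and a footprint overlapped it in both. A complete site was present in 0.0841% of all peaks in library 1 and 0.0701% in library 2, and in 1 of 158 and 1 of 199 member peaks. The shorter letters TGGC, any 5 bases, GCCA occurred in 3.16% and 3.52% of member peaks, beside 1.76% and 1.72% of all peaks. The complete palindrome contains these letters and the single arm, and is counted under each.

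The Nfic site lay in a peak of 1.65 and 1.46, the Rfx2 site in one of 1.33 and 1.16 and the Rfx4 site in one of 1.46 and 1.72. A footprint overlapped each of these 3 sites in both libraries. The Nfib site lay in a peak of 0.415 and 0.388, with a footprint in library 1 only. A further Nfib site and a site in Rfx7 lay in peaks of library 2 only, with 0.678 and 0.327. The single arm TTGGCA occurred in 22.2% and 21.1% of member peaks and in 15.9% of all peaks in both libraries. In the shorter list the shares were nearer, 17.7% and 15.4% of member peaks beside 15% and 14.9% of all peaks. The counts behind these shares are small, 35 and 42 member peaks for the single arm.

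The complete X-box (GTTGCC, any 2 bases, GG, any 1 base, AAC) occurred once, in an Rfx3 intron. It lay inside a library 2 peak of 0.444 but beyond the end of the library 1 peak of 0.402 that overlaps this peak, and no footprint overlapped the site. It was found in 0.423% of all peaks in library 1 and 0.347% in library 2. An X-box of looser letters in an Rfx4 intron lay in a peak of 0.687 and 0.802 and overlapped a footprint in both libraries. Another, at the Dcaf15 start downstream of Rfx1, lay in a peak of 6.80 and 6.25 and also overlapped a footprint in both. The looser X-box occurred in 1.27% and 2.01% of member peaks and in 1.31% and 1.10% of all peaks. These member shares are 2 of 158 and 4 of 199 peaks, and in library 2 overlapping peaks count the Dcaf15 site more than once. The partial X-box, which every whole X-box contains, occurred in 6.33% and 5.03% of member peaks against 5.08% and 4.89% of all peaks.

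Genes that work with or under these factors were taken as 5 lists. Of the other RFX genes and RFX5 partners, 3 of 4 had a promoter peak in both libraries. Rfxank had 7.60 and 5.93 and Rfxap 5.06 and 5.69, so that each subunit gene of the RFX5 complex had an open promoter, and Rfx8 had none. Of 9 MHC class II genes 6 had one, with a median signal of 0.869 ± 0.244. H2-DMa was highest with 8.06 and 6.83, H2-Eb1 followed with 3.0 and 2.68, and no promoter peak was called in either library for Cd74, H2-Oa and Ciita, the class II transactivator gene. All 20 ciliary genes had one, with a median of 5.56 ± 0.186, from Bbs2 with 9.94 and 9.53 and Ift140 with 9.91 and 8.36 to Bbs1 with 1.82 and 2.27. Among genes tied to NFI, 8 of 9 glial genes and 2 of 3 neuronal genes had one, with medians of 1.73 ± 0.0976 and 2.35 ± 0.491. Apcdd1 with 2.47 and 2.72 and Sox9, a glial lineage factor, with 2.44 and 2.15 were the highest glial genes, and Aqp4, the astrocyte water channel, had no promoter peak in either library. Of the neuronal genes Ephb1 had 3.54 and 2.86, Cntn2 had 2.0 and 2.69, and Gabra6, a receptor subunit of cerebellar granule cells, had none. These shares stand beside the 63.6% of all protein-coding genes, and the lists are short.

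Neighbouring genes share some of these windows. E130114P18Rik starts 214 bases from an Nfia start, C330011M18Rik 451 bases from an Rfx1 start and the noncoding gene 4930509E16Rik 382 bases from an Rfx7 start, so that a peak between the starts belongs to both. In both libraries the strongest Rfx7 promoter peak was centred nearer the start of 4930509E16Rik than that of Rfx7. Within Nfix lie Lyl1 and G430095P16Rik, whose own starts held 3 of the 24 Nfix peaks of library 1 and 1 of the 18 of library 2. The remaining genes overlapping a member are noncoding genes or pseudogenes: Gm11266, Gm11267, Gm11268, Gm11269 and n-R5s188 in Nfib, Gm16104 and Mir1191b in Nfic, Mir709 in Rfx1, Gm20407 and Gm8412 in Rfx3, Gm24226 in Rfx4, B230398E01Rik in Rfx5, and Gm18014, Gm19427, Gm27232, Gm27241 and Gm37105 in Rfx7.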

How the data were processed

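Per the labels and the deposited descriptions, each library had 2 peak lists, footprints and per-base false discovery rates on mm10, made from its own alignments. The peak signal is the authors' deposited value; no label or header used here names its scaling, the aligner or the peak caller. The per-base false discovery rates (q-values) and the footprint q-value threshold are likewise the authors'. The longer peak list was used, with Python 3.11.15. No peak or footprint ran past a chromosome end of the reference, GRCm38.p6, which carries reference alleles only. Promoter signal was the strongest peak within 500 bases of a start, or 0. Overlap needed 1 base. Scripts were tested on simulated data. Members and lists were chosen with earlier results of these data known. All members, each one's strongest peaks, the strongest unshared peaks, full consensus sites, neighbours, and 2 high and 1 low gene per list were named by rule. The looser sites, Dcaf15 and the Nfic flank were chosen after their values were seen. Alternatives covered windows, flanks, peak list, signal limits and leaving out each library.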

Additional observations from a re-analysis of the deposited data

How the results depend on the processing

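The count of 9 members with a promoter peak in both libraries ran from 9 to 10 over 6 alternatives. The median promoter signal of 3.61 fell to 2.00 with a window of 250 bases, where the Rfx3 mean changed from 5.71 to 0.856 and that of Nfia from 4.91 to 1.43, since their strongest peaks lie further upstream. It rose to 4.45 with 2000 bases. The mean peak number of 178 over both libraries was 263 with flanks of 50 kb, and 106 both with the shorter list and with peaks above the library median signal. Sharing was 62.0% in library 1 and 49.7% in library 2 when an overlap of 50% of both peaks was required. An alternative added after the data were seen, peaks above the library median signal, gave 78.7% in library 2. The 4 NFI genes with a stronger peak away from starts than at the promoter became 2 with a window of 2000 bases, and stayed at 4 with 250 bases and with the shorter list, alternatives also added after the data were seen. With 250 bases the RFX genes Rfx3 and Rfx7 had such a peak as well, beside Rfx4. Footprints fell from 416 to 339 without flanks. Bases under the false discovery rate fell from 55496 to 38787 at 0.005 and 31724 at 0.001. In footprints inside peaks the single NFI arm fell from 21.6% to 2.77%, the looser NFI site from 3.34% to 1.04%, the partial X-box from 5.68% to 0.268% and the looser X-box from 1.64% to 0, as footprints are shorter than peaks. In the shorter list the single NFI arm was at 16.5%. Leaving out each library gave 3.48 to 3.73 for the promoter signal, 158 to 199 peaks, 367 to 464 footprints, 46743 to 64250 bases, and 9 to 10 open promoters. No paired analysis was possible because there is 1 group and no test. With 2 libraries and unknown read depth, weak peaks near the calling limit are the least certain values.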
